A study of Homo sapiens with 5 samples.

Results

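The genes examined here encode the proteins of the mitochondrial ribosome, and their names begin with MRPL (large subunit) or MRPS (small subunit). Members were taken by a rule on names, every gene called MRPL or MRPS followed by a number, which gave 81 of the 26485 genes counted. Of these, 77 are protein genes, 48 MRPL and 29 MRPS, and all 77 had enough reads to be tested. The other 4 are the pseudogenes MRPS31P5, MRPL45P2 and MRPL42P5, which were tested and did not pass, and the antisense gene MRPL23-AS1, which had no read in any library.

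The cells were SW480, an established human colorectal cancer line, engineered to carry dCas9-KRAB, a nuclease-dead Cas9 joined to a domain that represses the gene a guide RNA leads it to. The 3 knockdown libraries came from cells given guides against AKAP12 (sgAKAP12), and the 2 control libraries from cells given control guides (sgControls). Both groups carried dCas9-KRAB, and RNA was taken 48 hours after seeding. Other label fields call the same groups shAKAP12 and shControl, so the labels name 2 silencing methods, and they do not say whether the cells were a pool or a clone. Whether replicates came from different cultures is not stated, so the p-values reflect only how far these libraries differ among themselves, and that spread may be technical.

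Mitochondria keep their own ribosome, which translates the few proteins encoded by mitochondrial DNA, all of them parts of the respiratory chain and ATP synthase. Its RNAs come from mitochondrial DNA, while every one of its proteins is encoded in the nucleus, made in the cytosol and imported. The large subunit holds the peptidyl transferase centre and the exit tunnel of the new protein, and the small subunit reads the mRNA. Some of its proteins have counterparts in bacterial ribosomes, and others are found in mitochondria only. The question here was how the mRNAs of these proteins, MRPL and MRPS, differed between AKAP12 knockdown and control cells.

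Read totals were 9311026, 6890868 and 7763190 in knockdown libraries 1 to 3, and 4935096 and 8670141 in control libraries 1 and 2. Counts are given as CPM, read counts relative to a library total scaled with TMM factors, and a count of 0 allowed up to 0.322 to 0.435 CPM in the knockdown libraries and up to 0.608 and 0.346 CPM in controls 1 and 2, taking 3 reads as the limit, which covers counting error only. AKAP12, which encodes a kinase-binding scaffold protein, had 1159, 1063 and 1008 CPM in the knockdown libraries, against 2870 and 1550 CPM in the controls. Its log2 fold change of -1.04 had an SE of 0.31 (edgeR adjusted p = 0.0513, threshold 0.05), so the check of the target falls short of a call, and the log2 value was -0.52 without control 1 and -1.42 without control 2. Control 1 stood apart from the other libraries and had the lowest level of any library for 49 of the 77 genes and the highest for 16. Summed markers of fibroblasts, endothelial cells and leukocytes gave 312 to 370, 43.9 to 54.6 and 54.2 to 70.0 CPM in the knockdown libraries, against 271 to 329, 47.3 to 70.0 and 34.5 to 67.3 CPM in the controls, and none of those 10 genes passed the test; COL1A1 made up 160 to 197 CPM of the fibroblast sum in the knockdown libraries and 174 to 186 CPM in the controls. The 6 colon epithelial markers summed to 1326 to 1572 CPM in the knockdown libraries and 1011 to 1513 CPM in the controls. KRT18 made up 730 to 879 CPM of that sum in the knockdown libraries and 427 to 984 CPM in the controls. Only KRT8 passed, as a rise (log2 fold change 1.78, edgeR adjusted p = 0.0195). The log2 values of the others were 0.15 (KRT18), -0.07 (KRT19), -0.43 (EPCAM), -1.12 (CDH1) and -1.06 (VIL1). CDH1 and VIL1 stayed below 8 CPM in every library. The part of any of these in the results below was not tested.

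Of the 77 genes, 25 rose and 7 fell in the AKAP12 knockdown libraries (edgeR quasi-likelihood test, Benjamini-Hochberg adjusted over 14536 genes). Among all tested genes 11.2% rose and 11.4% fell, 22.6% in either direction, while 32 of these 77 (41.6%) passed. Of the 25 rises 20 were at least 2-fold, and of the 7 falls 5 were. The median log2 fold change of the 77 was 0.66, against 0.04 over all tested genes, and 55 of the 77 values were positive. In 47 genes every knockdown library lay above both controls, in 14 every knockdown library lay below both, and in 16 the groups overlapped; over all tested genes 31.6% lay above and 28.5% below, 60.1% in either direction. Levels here are of RNA from whole cultures, in which fewer expressing cells and less RNA per cell cannot be told apart.

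**Figure D1:**
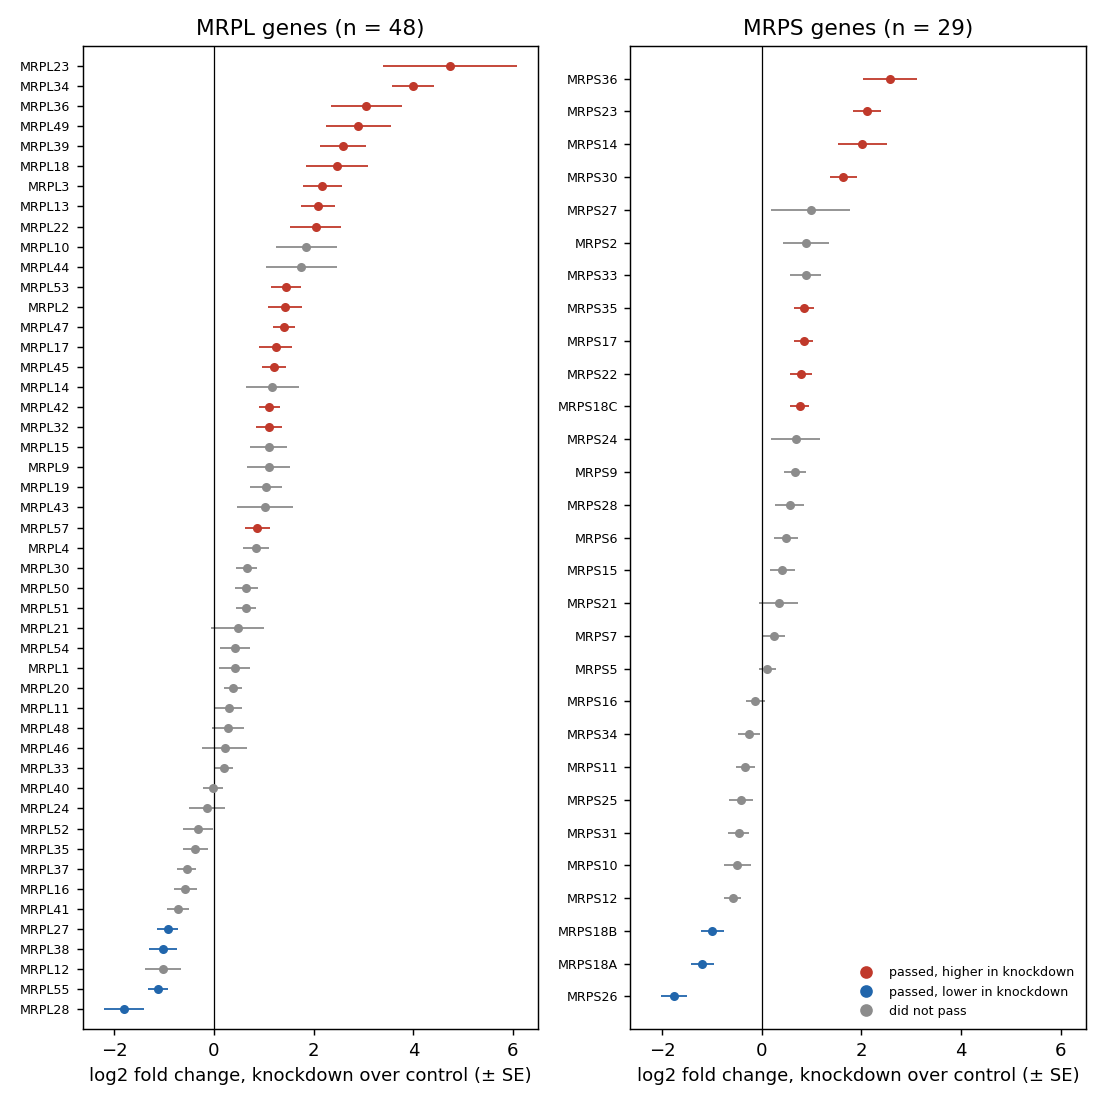
Log2 fold change (knockdown over control, x axis) of each of the 77 mitochondrial ribosomal protein genes, with bars of 1 SE and colours for genes that passed the edgeR threshold. Values run from -1.81 for MRPL28 to 4.74 for MRPL23, and 55 of the 77 lie above 0.

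Both groups of names held more genes that rose than fell. Of 48 MRPL genes 17 rose and 4 fell, with a median of 0.86, and of 29 MRPS genes 8 rose and 3 fell, with a median of 0.49. MRPL genes took 0.574%, 0.554% and 0.573% of all reads in the knockdown libraries, against 0.317% and 0.441% in the controls. MRPS genes took 0.402%, 0.394% and 0.406% in the knockdown libraries, against 0.273% and 0.362% in the controls. In both sums the groups did not overlap, and the controls lay further apart than the knockdown libraries. The ratio of MRPL to MRPS reads was 1.43, 1.41 and 1.41 in the knockdown libraries and 1.158 and 1.217 in the controls, also without overlap; no test was made of sums or medians, or of the difference between MRPL and MRPS.

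**Figure D2:**
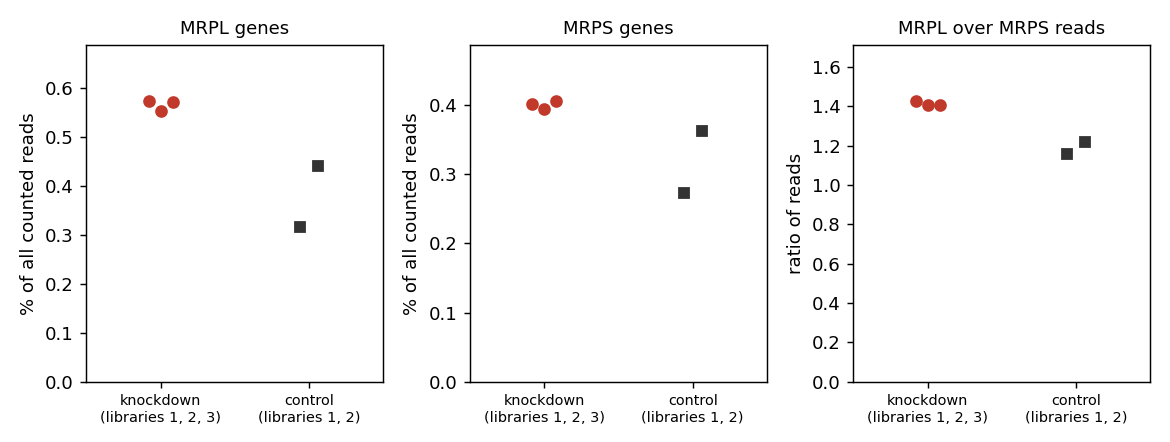
Share of all reads (percent, y axis from 0) taken by MRPL and by MRPS genes in each of the 3 knockdown and 2 control libraries. Both shares were lowest in control 1, at 0.317% for MRPL and 0.273% for MRPS.

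The names do not match the structure in 3 cases: the proteins of MRPS18A and MRPS30 are placed in the large subunit, and that of MRPS36 is now known as a subunit of the 2-oxoglutarate dehydrogenase complex. Counted by structure, 18 of 50 large-subunit genes rose and 5 fell (median 0.86), and 6 of 26 small-subunit genes rose and 2 fell (median 0.45). Among large-subunit genes with a bacterial counterpart, 11 of 29 rose and 2 fell, with a median of 1.10. Among large-subunit genes found in mitochondria only, 7 of 21 rose and 3 fell, with a median of 0.65. In the small subunit, 3 of 16 genes with a bacterial counterpart rose and none fell (median 0.45), and 3 of 10 mitochondria-only genes rose and 2 fell (median 0.27). In either direction 44.8% of the large-subunit genes with a bacterial counterpart, 47.6% of the mitochondria-only ones, 18.8% of the small-subunit genes with a bacterial counterpart and 5 of the 10 mitochondria-only ones passed, beside 22.6% of all tested genes. These classes moved with the controls. Without control 1 and without control 2, the large-subunit medians were 0.54 and 1.69 for bacterial counterparts and 0.32 and 0.96 for mitochondria-only genes. The small-subunit medians were 0.14 and 0.80 for bacterial counterparts and 0.08 and 0.05 for mitochondria-only genes. Over all tested genes the medians were 0.01 without control 1 and 0.13 without control 2. 

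The 5 largest fitted rises were in genes of large-subunit proteins. MRPL34 (chromosome 19, 17305668 to 17306843, hg38), a small protein of the large subunit with a bacterial counterpart, had 93.6, 97.2 and 117 CPM in the knockdown libraries, against 3.43 and 8.83 CPM in the controls. All 3 knockdown libraries were more than 10 times as high as either control. Its log2 fold change was 3.99 (SE 0.41, edgeR adjusted p = 0.0126), and it was 3.53 without control 1 and 4.89 without control 2. MRPL36 (chromosome 5, 1798385 to 1799842), another small protein with a bacterial counterpart, had 47.8, 51.3 and 73.8 CPM in the knockdown libraries, against 1.225 and 11.6 CPM in the controls. Knockdown libraries lay above both controls, and control 1 lay far below control 2. The log2 fold change was 3.05 (SE 0.71, edgeR adjusted p = 0.0301), with 2.31 without control 1 and 5.53 without control 2.

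MRPL49 (chromosome 11, 65122183 to 65127369), a protein with no bacterial counterpart, had 89.7, 91.6 and 102 CPM in the knockdown libraries, against 3.18 and 21.0 CPM in the controls. Its log2 fold change was 2.90 (SE 0.65, edgeR adjusted p = 0.0279), and 2.17 and 4.88 without control 1 and without control 2. Its exons overlap those of SYVN1, a ubiquitin ligase of the endoplasmic reticulum, and FAU, a cytosolic ribosomal protein gene, on the opposite strand, and the counts used no strand. SYVN1 had a log2 change of 2.92 (edgeR adjusted p = 0.0440) and FAU one of 1.10 (edgeR adjusted p = 0.288), so reads of the 3 genes cannot be told apart here.

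MRPL18 (chromosome 6, 159790460 to 159798429), which in the mitochondrial ribosome contacts the structural tRNA of the central protuberance, had 88.7, 117 and 134 CPM in the knockdown libraries, against 6.37 and 33.3 CPM in the controls. The log2 fold change was 2.47 (SE 0.62, edgeR adjusted p = 0.0355), with 1.76 without control 1 and 4.14 without control 2, and the call was lost with library size only (adjusted p = 0.0514). MRPL3 (chromosome 3, 131462201 to 131503016), whose bacterial counterpart reaches towards the peptidyl transferase centre, had 154, 149 and 176 CPM in the knockdown libraries, against 20.1 and 50.01 CPM in the controls. It had a log2 change of 2.17 (SE 0.39, edgeR adjusted p = 0.0198), with 1.68 without control 1 and 2.99 without control 2. MRPL39 (chromosome 21, 25585656 to 25607489), a mitochondria-only protein, was lower in reads, with 16.6, 9.38 and 18.6 CPM in the knockdown libraries, against 1.71 and 2.98 CPM in the controls. Groups did not overlap in any of these genes, and MRPL39 had a log2 change of 2.59 (SE 0.45, edgeR adjusted p = 0.0183).

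MRPL23 (chromosome 11, 1947272 to 1956609), whose bacterial counterpart sits at the exit of the tunnel, had the largest fitted value, 4.74 (SE 1.34, edgeR adjusted p = 0.0465), on very few reads. It had 6, 22 and 32 reads in the knockdown libraries, against 0 and 1 in the controls. The ratio of the groups at their depths was 30.3, with a 95% exact interval of 5.23 to 1216 that covers counting error only. It was 20.6 (3.56 to 828) without control 1, and at least 3.22-fold higher without control 2, against a limit of 3 reads. The call was lost with scaling by library size only and with limma-voom, and the gene is annotated on a second sequence of the build beside chromosome 11.

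MRPS36 (chromosome 5, 69217746 to 69230158), the gene of the dehydrogenase subunit, was the largest rise under an MRPS name. It had 43.8, 29.1 and 38.1 CPM in the knockdown libraries, against 2.20 and 9.40 CPM in the controls, with a log2 change of 2.58 (SE 0.54, edgeR adjusted p = 0.0241). Without control 1 the value was 1.98 and without control 2 it was 4.06. MRPS23, a mitochondria-only protein of the small subunit, had 130, 135 and 157 CPM in the knockdown libraries, against 24.0 and 40.3 CPM in the controls, a log2 change of 2.12 (edgeR adjusted p = 0.0138). MRPS30, a large-subunit protein despite its name, had 40.6, 35.2 and 51.9 CPM in the knockdown libraries, against 12.2 and 14.9 CPM in the controls, a log2 change of 1.64 (edgeR adjusted p = 0.0170). In these 3 genes the lowest knockdown library was above the higher control.

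**Figure D3:**
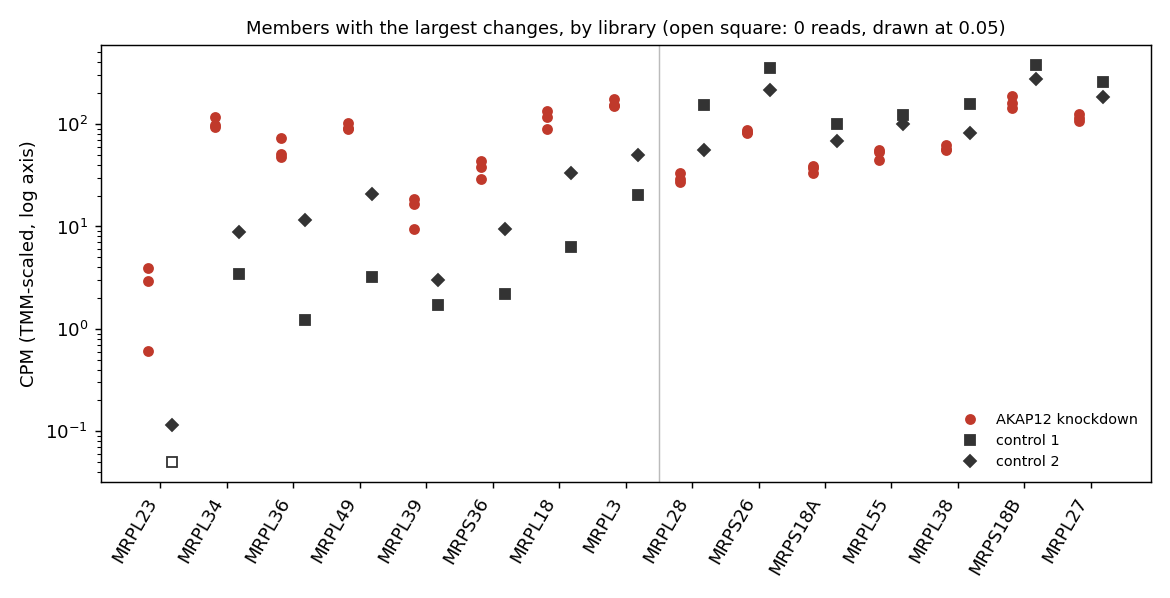
CPM (log axis) of the named mitochondrial ribosomal protein genes in each library, knockdown points left of control points. MRPL34 stood at 93.6 to 117 CPM in knockdown and at 3.43 and 8.83 CPM in control, and MRPS26 at 81.0 to 87.8 CPM in knockdown and at 355 and 213 CPM in control.

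The other 15 genes that rose had log2 fold changes from 0.76 to 2.09. In the large subunit they were MRPL13 (2.09), MRPL22 (2.04), whose bacterial counterpart lines the exit tunnel, MRPL53 (1.44), MRPL2 (1.43), a core protein near the peptidyl transferase centre, MRPL47 (1.41), MRPL17 (1.24), MRPL45 (1.21), which lies at the tunnel exit and ties the ribosome to the inner membrane, MRPL42 (1.11), MRPL32 (1.10) and MRPL57 (0.87). In the small subunit they were MRPS14 (2.02), MRPS35 (0.85), MRPS17 (0.84), MRPS22 (0.79) and MRPS18C (0.76). Exons of MRPL13, MRPL57 and MRPS18C overlap another gene on the opposite strand (MTBP, SKA3 and FAM175A). Leaving out control 1 moved the values of MRPL22 and MRPS14 by more than 1.5 times, and leaving out control 2 those of MRPL13, MRPL22, MRPS14, MRPL2 and MRPL17; of the 25 rises, such moves were counted in 6 and in 12 genes. Calls were lost with GC offsets for MRPS35, MRPS22, MRPL57, MRPL32 and MRPS18C, with RLE scaling for MRPS22, and with library size only for MRPL17, MRPL22 and MRPL57.

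The 7 genes that fell were MRPL28, MRPS26, MRPS18A, MRPL55, MRPL38, MRPS18B and MRPL27. MRPL28 (chromosome 16, 367384 to 370569), a large-subunit protein with a bacterial counterpart, had 33.2, 29.2 and 27.0 CPM in the knockdown libraries, against 155 and 55.6 CPM in the controls. Its log2 fold change was -1.81 (SE 0.40, edgeR adjusted p = 0.0274), and -0.90 without control 1 and -2.38 without control 2. MRPS26 (chromosome 20, 3046029 to 3048250), a mitochondria-only small-subunit protein, had 87.8, 83.2 and 81.0 CPM in the knockdown libraries, against 355 and 213 CPM in the controls. The log2 fold change was -1.76 (SE 0.25, edgeR adjusted p = 0.0146), and -1.34 and -2.08 without control 1 and without control 2. Both genes had lower levels in every knockdown library than in either control, and both were highest in control 1.

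MRPL55 (chromosome 1, 228106679 to 228109312), a mitochondria-only large-subunit protein, had 55.9, 53.0 and 45.0 CPM in the knockdown libraries, against 123 and 101 CPM in the controls, a log2 change of -1.13 (SE 0.20, edgeR adjusted p = 0.0197). MRPL27 (chromosome 17, 50367867 to 50373201), whose bacterial counterpart reaches into the peptidyl transferase centre, had 127, 115 and 106 CPM in the knockdown libraries, against 256 and 186 CPM in the controls, a log2 change of -0.93 (SE 0.22, edgeR adjusted p = 0.0296). MRPL38 (chromosome 17, 75898643 to 75905100), a mitochondria-only protein of the central protuberance, had 62.9, 56.5 and 55.3 CPM in the knockdown libraries, against 156 and 82.1 CPM in the controls. Its value of -1.02 (SE 0.29, edgeR adjusted p = 0.0452) moved with the settings: it was -0.49 without control 1, and the call was lost with GC offsets, with library size only and with limma-voom.

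The 3 human relatives of the bacterial small-subunit protein S18 did not move alike. MRPS18C (chromosome 4, 83455932 to 83461723), which occupies the bacterial S18 position in the small subunit, had 185, 191 and 187 CPM in the knockdown libraries, against 99.9 and 121 CPM in the controls. Its log2 fold change was 0.76 (SE 0.19, edgeR adjusted p = 0.0356), a call lost with GC offsets. MRPS18A (chromosome 6, 43671197 to 43687812), placed in the large subunit, had 39.3, 37.5 and 33.4 CPM in the knockdown libraries, against 99.9 and 68.2 CPM in the controls, a log2 change of -1.19 (SE 0.23, edgeR adjusted p = 0.0217). MRPS18B (chromosome 6, 30617709 to 30626397), placed elsewhere in the small subunit, had 189, 161 and 145 CPM in the knockdown libraries, against 381 and 275 CPM in the controls, a log2 change of -0.99 (SE 0.23, edgeR adjusted p = 0.0296). The first was higher, and the other 2 lower, in every knockdown library than in either control. Each therefore kept its direction without either control. MRPS18B is annotated on 7 sequences of the build.

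Promoter windows from RefSeq (GRCh38.p14, 250 bases before to 50 after the start) were found for 68 of the 77 genes and are shown for large rises (MRPL36, MRPL49), the 2 largest falls and the S18 relatives, all with the start of the count files inside the window. Capitals mark matches, on either strand, to CCGGAAG (the ETS core searched), ATGGCGG (YY1) and TGCGCA (NRF1), which do not overlap in these windows. These factors are known regulators of many nuclear genes for mitochondrial proteins.
MRPL36 (chr5:1799788-1800087, minus strand): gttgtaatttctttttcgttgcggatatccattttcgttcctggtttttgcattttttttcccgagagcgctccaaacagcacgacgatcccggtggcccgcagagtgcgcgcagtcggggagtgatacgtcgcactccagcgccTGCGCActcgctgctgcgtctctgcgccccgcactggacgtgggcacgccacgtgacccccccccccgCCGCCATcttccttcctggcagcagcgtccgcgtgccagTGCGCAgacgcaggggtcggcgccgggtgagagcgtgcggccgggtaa
MRPL49 (chr11:65121933-65122232, plus strand): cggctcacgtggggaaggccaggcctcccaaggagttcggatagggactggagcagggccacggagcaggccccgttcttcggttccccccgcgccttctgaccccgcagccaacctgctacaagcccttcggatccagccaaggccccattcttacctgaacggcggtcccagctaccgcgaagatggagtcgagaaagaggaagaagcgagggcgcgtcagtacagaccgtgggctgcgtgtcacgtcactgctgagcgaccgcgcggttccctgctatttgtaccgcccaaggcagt
MRPL28 (chr16:370489-370788, minus strand): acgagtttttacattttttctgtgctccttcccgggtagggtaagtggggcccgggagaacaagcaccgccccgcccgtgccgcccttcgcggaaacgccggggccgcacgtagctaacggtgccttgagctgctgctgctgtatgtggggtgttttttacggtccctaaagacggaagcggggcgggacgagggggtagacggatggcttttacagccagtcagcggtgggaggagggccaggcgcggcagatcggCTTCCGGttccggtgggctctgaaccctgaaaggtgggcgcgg
MRPS26 (chr20:3045802-3046101, plus strand): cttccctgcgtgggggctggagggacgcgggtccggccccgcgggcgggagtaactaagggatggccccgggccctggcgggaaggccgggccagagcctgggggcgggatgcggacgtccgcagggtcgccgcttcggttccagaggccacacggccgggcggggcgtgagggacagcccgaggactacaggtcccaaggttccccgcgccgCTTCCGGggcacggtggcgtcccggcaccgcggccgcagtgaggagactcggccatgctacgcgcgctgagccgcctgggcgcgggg
MRPS18A (chr6:43687742-43688041, minus strand): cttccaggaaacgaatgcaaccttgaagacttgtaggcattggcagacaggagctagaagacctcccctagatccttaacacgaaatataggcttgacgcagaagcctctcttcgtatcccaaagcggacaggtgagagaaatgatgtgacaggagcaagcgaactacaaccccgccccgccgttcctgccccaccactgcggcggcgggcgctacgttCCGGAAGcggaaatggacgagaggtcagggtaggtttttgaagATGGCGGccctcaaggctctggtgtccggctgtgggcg
MRPS18B (chr6:30617590-30617889, plus strand): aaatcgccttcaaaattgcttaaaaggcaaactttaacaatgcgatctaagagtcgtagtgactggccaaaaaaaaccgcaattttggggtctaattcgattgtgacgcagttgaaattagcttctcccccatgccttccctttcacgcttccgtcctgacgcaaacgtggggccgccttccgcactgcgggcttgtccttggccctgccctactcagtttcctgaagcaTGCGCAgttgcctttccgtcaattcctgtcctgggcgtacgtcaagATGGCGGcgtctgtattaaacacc
MRPS18C (chr4:83455808-83456107, plus strand): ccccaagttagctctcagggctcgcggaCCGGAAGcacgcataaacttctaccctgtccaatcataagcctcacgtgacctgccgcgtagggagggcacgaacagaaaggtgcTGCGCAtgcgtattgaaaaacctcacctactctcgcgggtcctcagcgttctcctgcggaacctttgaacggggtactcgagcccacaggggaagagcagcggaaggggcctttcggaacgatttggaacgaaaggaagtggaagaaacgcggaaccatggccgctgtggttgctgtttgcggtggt

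The ETS letters were in 28 of the 68 windows (41.2%), against 10.7% of the 27305 promoters searched. The YY1 letters were in 23 of 68 (33.8%), against 5.72%, and the NRF1 letters in 14 of 68 (20.6%), against 8.42%. Only 63 of the 68 windows held the gene start of the count files. Of those, 28 held the ETS, 22 the YY1 and 12 the NRF1 letters. The YY1 and NRF1 letters were taken after longer ones matched fewer windows, so they were not fixed in advance. In many windows the YY1 letters, which begin with ATG, lay after the start. The part of coding sequence in these matches was not tested. Of the 7 genes that fell, 5 held the ETS, 3 the YY1 and 1 the NRF1 letters, and of the 21 that rose and had a window, 6 held the ETS, 8 the YY1 and 9 the NRF1 letters. Among the 40 that did not pass, 17 held the ETS, 12 the YY1 and 4 the NRF1 letters. The window of MRPL49 held none of the 3, and that of MRPL36 held the NRF1 letters at 2 places. A match is a description of the letters, not a bound site, and no test was made between these groups.

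The 45 genes that did not pass had values from -1.03 to 1.86, 30 positive and 15 negative. The 5 nearest the threshold were MRPL51 (0.65, edgeR adjusted p = 0.0558), MRPL4 (0.85, 0.0572) and MRPL19 (1.05, 0.0588) above 0, and MRPS12 (-0.58, 0.0560), a protein of the decoding centre, and MRPL41 (-0.72, 0.0521) below it. The stalk of the large subunit recruits translation factors. Of its genes only MRPL10, MRPL11 and MRPL12, chosen once the values were known, were looked at as a group. None of them passed, and they do not stand for every protein of the stalk. MRPL10 had a log2 change of 1.86 (edgeR adjusted p = 0.0689), MRPL11 one of 0.30 (0.441), and MRPL12, present in several copies in the stalk, one of -1.03 (0.0794). Each rested on the controls: without control 1 and without control 2 the values were 1.14 and 3.82 for MRPL10, -0.04 and 0.76 for MRPL11, and -0.24 and -1.54 for MRPL12.

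Of the 3 genes with the most reads in each subunit, 1 passed, MRPS18B, given above. MRPL51 had 421, 400 and 450 CPM in the knockdown libraries, against 286 and 255 CPM in the controls. MRPL20 had 265, 271 and 255 CPM in the knockdown libraries, against 203 and 202 CPM in the controls, a log2 change of 0.38 (edgeR adjusted p = 0.164). MRPL21 had 389, 325 and 334 CPM in the knockdown libraries, against 96.0 and 405 CPM in the controls, so its groups overlapped (log2 fold change 0.48, edgeR adjusted p = 0.534). In the small subunit, MRPS6 had 439, 438 and 526 CPM in the knockdown libraries, against 267 and 398 CPM in the controls, a log2 change of 0.49 (edgeR adjusted p = 0.186). MRPS6 shares exons on the same strand with SLC5A3, an inositol transporter gene that fell (-1.05, edgeR adjusted p = 0.0323). MRPS34 had 258, 245 and 258 CPM in the knockdown libraries, against 356 and 249 CPM in the controls, with overlapping groups (log2 fold change -0.26, edgeR adjusted p = 0.417).

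The GC content of a gene's longest annotated transcript moved with the fold change. Of the 25 genes with the lowest GC (33.5% to 43.3%), 13 rose and none fell, with a median of 0.88. Of the 26 with the highest GC (52.1% to 71.9%), 5 rose and 5 fell, with a median of 0.34. All tested genes show the same order: of 4231 with GC up to the lower limit 629 rose and 188 fell (median 0.23), and of 5248 with GC from the upper limit 414 rose and 997 fell (median -0.20). Across the 77 genes, which share libraries and are not independent, Pearson's r of GC with log2 fold change was -0.25 (rho -0.29), against -0.18 (rho -0.20) over 13725 tested genes. For MRPS genes alone r was -0.63 (rho -0.57, n = 29), and for MRPL genes it was -0.17 (rho -0.21, n = 48). With offsets that remove the GC trend of each library, 21 of the 77 rose and 6 fell (median 0.54), against 9.58% and 10.5% of all tested genes; MRPL genes gave 16 and 3 (median 0.75) and MRPS genes 5 and 3 (median 0.34). The part of base composition in single genes was not tested.

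**Figure D4:**
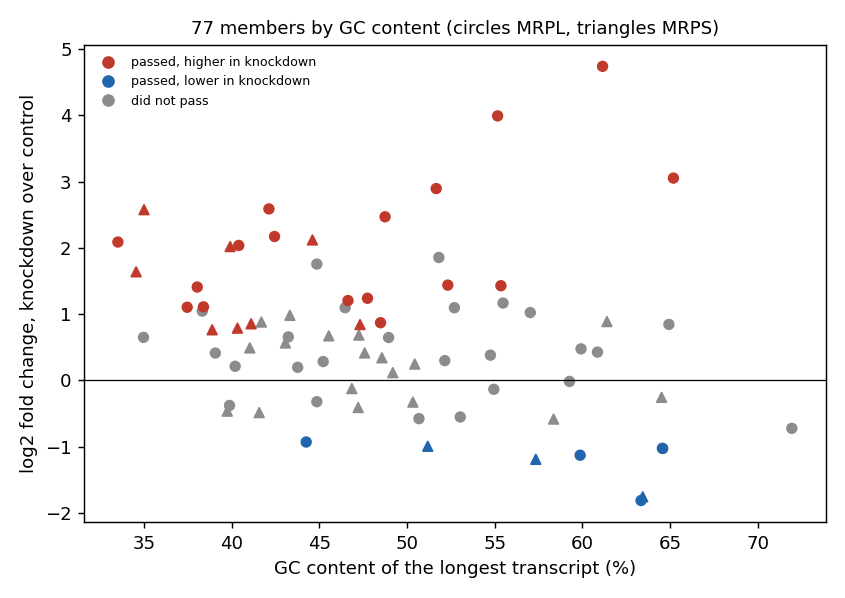
Transcript GC content (percent, x axis) against log2 fold change, knockdown over control (y axis), for the 77 genes, with colours for genes that passed. The 25 genes with GC of 33.5% to 43.3% hold 13 of the 25 that rose and none of the 7 that fell, and the point of MRPL38 covers that of MRPL12.

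Exons of 14 of the 77 genes overlap another gene, and 4 of these rose and none fell (median 0.72). Of the 63 without such overlap, 21 rose and 7 fell (median 0.65). In either direction 28.6% of the 14 and 44.4% of the 63 passed, beside 22.6% of all tested genes. MRPS24 is the extreme case, since nearly all its reads are also counted for the read-through gene URGCP-MRPS24, which had 2379, 1889 and 1983 reads in the knockdown libraries, against 266 and 2116 in the controls. MRPS24 itself did not pass (log2 fold change 0.68, edgeR adjusted p = 0.338).

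Other genes of the mitochondrial translation pathway were counted in 4 lists. Of 6 mitochondrial ribosome proteins with other names, 1 rose and none fell (median 0.21). That one was ICT1, a peptidyl-tRNA hydrolase built into the large subunit, with 103, 113 and 112 CPM in the knockdown libraries, against 59.3 and 73.9 CPM in the controls (log2 fold change 0.71, edgeR adjusted p = 0.0452); the call was lost with no filter. Of 13 translation factors, 2 rose and 1 fell (median 0.28). TSFM, the exchange factor of the mitochondrial elongation factor Tu, had 43.0, 34.7 and 42.8 CPM in the knockdown libraries, against 7.10 and 6.08 CPM in the controls, a log2 change of 2.62 (edgeR adjusted p = 0.0124), and its exons overlap AVIL. TUFM, elongation factor Tu itself, had 163, 150 and 144 CPM in the knockdown libraries, against 340 and 218 CPM in the controls, a log2 change of -0.87 (edgeR adjusted p = 0.0421) that was lost with GC offsets and with library size only. MTFMT, which formylates the initiator tRNA, had a log2 change of 1.43 (edgeR adjusted p = 0.0199).

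Of 27 factors of ribosome assembly and rRNA modification, 3 rose and 2 fell, with a median of 0.02. METTL17 rose (2.04, edgeR adjusted p = 0.0279), with 2.89 without control 1 and 1.39 without control 2, and so did NGRN (0.75, 0.0392), whose call was lost with GC offsets. MPV17L2 rose (2.26, 0.0413), a call lost with limma-voom, and without control 2 the ratio of its reads was 18.7 (95% exact interval 3.28 to 744), on 1 control read. RNMTL1, an rRNA methyltransferase, fell (-1.12, 0.0290), and so did MTG2, a GTPase of large-subunit assembly (-1.66, 0.0389). MTG2 was -0.66 without control 1 and -2.27 without control 2, and its call was lost with GC offsets, library size only and limma-voom. Of 16 factors of mitochondrial transcription and RNA processing, 4 rose and none fell (median 0.46). TFB2M, which helps the mitochondrial RNA polymerase open the promoter, had 9.62, 6.96 and 9.22 CPM in the knockdown libraries, against 0.490 and 0.803 CPM in the controls. Its log2 change was 3.62 (edgeR adjusted p = 0.0131), on few reads: 94, 52 and 75 in the knockdown libraries, against 2 and 7 in the controls. TEFM, the elongation factor of that polymerase, rose by 1.87 on the log2 scale (edgeR adjusted p = 0.0203), with 1.49 without control 1 and 2.50 without control 2. TFAM, which packages mitochondrial DNA, rose by 0.80 (0.0318) and SLIRP, which stabilises mitochondrial mRNAs, by 0.97 (0.0361), both calls lost with GC offsets. These shares of called genes, 1 of 6, 3 of 13, 5 of 27 and 4 of 16, stand beside 22.6% of all tested genes.

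**Figure D5:**
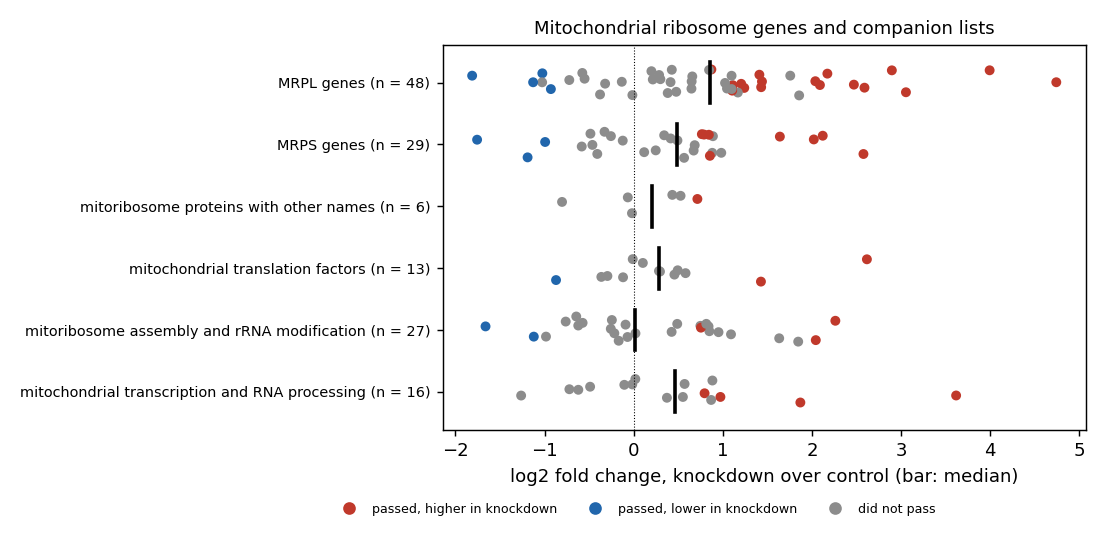
Log2 fold change (knockdown over control, x axis) of MRPL and MRPS genes and of 4 lists of the same pathway, each point a gene and each bar the median of its row. The bars stand at 0.86 for MRPL, 0.49 for MRPS and between 0.02 and 0.46 for the 4 lists.

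The 2 controls lay further apart than the 3 knockdown libraries in these genes, and also over all tested genes. Control 1 was lower than control 2 in 53 of the 77 genes (68.8%), against 51.6% of all tested genes. The median log2 difference was -0.52 in the 77 and -0.04 in all. Without regard to sign, the median difference was 0.72 in the 77 and 0.62 in all tested genes. The median range over the 3 knockdown libraries was 0.23 on the log2 scale (0.33 over all tested genes). Without control 1 the median of the 77 was 0.39, with 37 genes higher and 13 lower, against 20.3% and 17.0% of all genes tested in that fit. Without control 2 the median was 0.94, with 54 higher and 17 lower, against 30.5% and 27.6%. MRPL genes had a median of 0.51 without control 1 and 1.09 without control 2, and MRPS genes 0.14 and 0.80. With 1 control left the spread comes from the knockdown libraries alone and the lone control is assumed to vary alike, so more genes pass. All 32 called genes kept their direction without either control. The groups did not overlap in any of the 32, so this outcome was all but fixed beforehand. With any 1 knockdown library left out, none of the 77 passed by edgeR: 33 to 35 had an unadjusted p under 0.05, and the lowest adjusted p over all genes was 0.0842 to 0.125.

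In the authors' deposited table of the comparison, 31 of the 77 genes had a positive and 10 a negative log2 fold change with an adjusted p under 0.05, against 12.6% and 12.7% of all genes with an adjusted p there. The table does not state its direction; across tested genes its fold change and the edgeR value had r = 0.999, so positive was read as higher in the knockdown. All 77 genes had the same sign in the authors' deposited table as in the edgeR fit, and all 32 called genes were under 0.05 in both. The direction was set from that correlation and the comparison is the same, so this is not separate support. The counts for MRPL genes were 23 positive and 6 negative, and for MRPS genes 8 and 4, in the authors' deposited table.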

How the data were processed

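Libraries were made with the QuantSeq FWD kit, which reads the 3′ part of poly(A) RNA, and sequenced on an Illumina instrument, per the labels' protocols. The deposited counts are whole numbers of reads per gene, which the authors counted over exons with featureCounts 1.6.2, counting a read for each gene it overlaps and without a strand option, per the file headers. STAR 2.7, hg38 and DESeq2 1.22 are named in the submitters' processing notes. The authors' deposited table lists per gene a log2 fold change with its error, a mean signal over libraries, a test score and p-values, and its model is not given in the sources used here.

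Counts were filtered with filterByExpr (minimum count 10), scaled by TMM and fitted in edgeR 4.0.16 under R 4.3.3, whose quasi-likelihood test was used two-sided with a threshold of 0.05 after Benjamini-Hochberg adjustment over 14536 genes. The SE comes from dividing the size of a log2 change by the root of its F value. An exact permutation test of 3 libraries against 2 cannot go below p = 0.1. Transcript GC came from GENCODE, for 94.4% of tested genes. On simulated counts with known changes, the fit called 68 of 99 genes changed 4-fold, 2 of 96 changed 2-fold and 7 of 14029 left unchanged. Far fewer genes were changed there than passed in the data, so these rates do not carry over directly. Members and lists were chosen with earlier results of these data known.

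Named genes were AKAP12, the 8 largest rises and up to 8 largest falls (7 passed) among members past the threshold, the other called members by fold change, the 3 members of each subunit with the most reads, untested members, and up to 4 called genes of each list. Genes near the threshold, stalk genes (MRPL10, MRPL11 and MRPL12), MRPS24, MRPS23 and MRPS30 values and overlapping partners were added once the values were known. Shorter YY1 and NRF1 letters replaced longer ones that matched fewer windows. Other settings tried were limma-voom 3.58.1, DESeq2 1.42.0, RLE, library size only, other filters, GC offsets (span 0.2), removal of TERT and short RNA genes, the replicate number as a block, and leaving out each library.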

Additional observations from a re-analysis of the deposited data

How the results depend on the processing

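AKAP12 passed the threshold with DESeq2 (-1.09), GC offsets (-1.15), limma-voom (-0.98), no filter (-0.996), a stricter filter of 5 CPM in 2 libraries (-1.06) and without TERT and short RNA genes (-1.04), and ran from -1.42 to -0.52 with 1 library left out. Deviations of same-numbered libraries from their group means correlated at -0.05 and -0.08 over 2 pairs. The deviations of 2 controls mirror each other, so these values cannot settle whether the replicate numbers pair samples. With the replicate block, 185 genes rose and 25 fell of all tested (1.44% called), and of the 77 genes 7 rose (6 MRPL, 1 MRPS) and 0 fell; by list, 0 other-named ribosome proteins, 1 translation factor, 0 assembly factors and 0 transcription factors passed. With GC offsets 5 MRPS genes were higher, and 3 of 27 assembly and 2 of 16 transcription genes passed, beside 2916 of all 14536 genes. With library size only 7 transcription genes passed, against 4 in the main fit. That setting called 2650 of 14536 genes, 982 of them lower. DESeq2 called 2 of 6 other-named and 8 of 27 assembly genes, beside 4451 of 14536. With no filter 0 other-named genes passed, beside 3540 of 20897. Of the 32 called genes, GC offsets and library size only each lost 6, limma-voom 2 and RLE 1.

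Leaving out 1 library in turn, all genes gave 0 to 4625 higher and 0 to 4186 lower, the 77 gave 0 to 54 and 0 to 17, MRPL 0 to 36 and 0 to 10, and MRPS 0 to 18 and 0 to 7. The zeros came with each knockdown library left out, where 3774 to 4109 of all genes had an unadjusted edgeR p under 0.05. Medians ran from 0.39 to 0.94 (all 77), 0.51 to 1.09 (MRPL) and 0.14 to 0.80 (MRPS). The lists gave 0 to 3 other-named genes, 0 to 8 translation factors, 0 to 19 assembly and 0 to 10 transcription genes. MRPS34 turned positive with GC offsets (0.11) and ran from -0.50 to 0.027 with 1 library left out, and MRPL21 ran from -0.21 to 1.86, the positive MRPS34 and negative MRPL21 values being those without control 1. The cause of these changes was not tested. The value of MRPL23 rests on few reads.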

Other observations

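Among the 7 genes whose controls lay furthest apart on the log2 scale, 3 are rises given above (MRPL36, MRPL49 and MRPL18, with log2 differences of control 1 from control 2 of -2.81, -2.54 and -2.30). The other 4, MRPS27 (-3.42), MRPL44 (-3.06), MRPL10 (-2.47) and MRPL43 (-2.23), did not pass, and all were chosen after their values were seen. MRPS27, an RNA-binding protein of the small subunit, had 79.3, 69.2 and 74.5 CPM in the knockdown libraries, against 5.88 and 67.9 CPM in controls 1 and 2. MRPL44, a large-subunit protein with a ribonuclease III fold, had 24.5, 22.9 and 22.9 CPM in the knockdown libraries, against 0.980 and 11.8 CPM in the controls. MRPL43 had 70.7, 68.3 and 65.9 CPM in the knockdown libraries, against 11.3 and 54.7 CPM in the controls. In MRPS27, MRPL44 and MRPL43 the knockdown libraries lay close together and control 2 was nearer to them than control 1 was.

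The tested pseudogenes had low levels. MRPS31P5 had 10.4, 10.7 and 8.36 CPM in the knockdown libraries, against 15.9 and 7.23 CPM in the controls, and its log2 value was 0.45 without control 1 and -0.70 without control 2. MRPL45P2 had 3.58, 4.69 and 4.92 CPM in the knockdown libraries, against 11.5 and 4.70 CPM in the controls, with a log2 change of -0.84 (edgeR adjusted p = 0.207), which was -0.10 without control 1 and -1.40 without control 2. Pseudogenes can share reads with their parents, so these values are uncertain.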
